A study of Mus musculus with 6 samples.

Results

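Secreted trophic factors that act on retinal ganglion cells (RGCs) were followed in retinal cells sorted after optic nerve crush (ONC). The 9 genes, *Igf1*, *Bdnf*, *Ntf3*, *Lif*, *Osm*, *Cntf*, *Gdnf*, *Fgf2* and *Ocm*, were taken by symbol from the 55573 gene identifiers of the count table, and each was found as 1 row. All libraries came from C57BL/6J mice, adults of 6 to 10 weeks and of both sexes per the study's methods. AAV2 carrying *GFP* (3 control libraries) or *Ezh2* (3 libraries) had been injected in the vitreous 2 weeks before ONC, and the cells were sorted 3 days after it as living cells positive for CD90.2, the product of *Thy1*. Every library therefore comes from a crushed nerve and a virus-injected eye, and no uninjured sample was analysed here. AAV2 in the vitreous can reach retinal cells other than RGCs, and the promoter driving *Ezh2* was not given in the sources used here. The labels do not say whether the libraries of a group came from separate animals, so the p values measure the spread between these libraries, which may be technical.

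RGCs send their axons through the optic nerve to the brain. Trophic factors bind receptors on neurons and glia. IGF1 and the neurotrophins BDNF and NT-3 signal through receptor tyrosine kinases, whereas LIF, OSM and CNTF belong to the interleukin-6 family and signal through gp130, JAK kinases and STAT3. Several of these factors, and oncomodulin from inflammatory cells, are known to support RGC survival or axon regrowth when supplied after ONC. In the retina, Müller glia and astrocytes are known sources of CNTF, LIF and FGF2, and microglia and macrophages are known sources of IGF1, OSM and oncomodulin.

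Libraries held between 30569933 and 35971192 counts. *Ezh2* itself lay at 28.8 to 34.6 CPM (the gene's counts relative to all counts of its library) in the 3 GFP libraries and at 65.3 to 104.8 CPM in the 3 Ezh2 libraries, and reads of the transgene and of the endogenous gene were not separated. Ezh2 replicate 3 stood apart from the rest. Across genes its log2 CPM correlated at 0.971 to 0.972 with the other Ezh2 libraries, compared to 0.988 between Ezh2 replicates 1 and 2, which describes the libraries only. The study left 1 Ezh2 library out, inferred from its column names to be replicate 3. The comparison was therefore fitted on 5 libraries, and values with all 6 are given beside it. The label of the cells was checked too. *Pou4f2*, a transcription factor that defines RGCs, stayed at or below 3 counts in every library, whereas *Rbpms*, another RGC marker, lay at 16.4 to 20.8 CPM. *Glul*, the glutamine synthetase of Müller glia, lay at 5446 to 9900 CPM, and *Csf1r*, the CSF1 receptor of microglia and macrophages, at 447 to 615 CPM. The libraries thus held RNA of glia and myeloid cells, and not of these alone. In the GFP libraries, endothelial and mural markers summed to 2654 to 2803 CPM, mostly from *Kdr* (2359 CPM on average). Bipolar markers summed to 609 to 617 CPM, amacrine markers to 495 to 513 CPM, and B and plasma cell markers to 464 to 515 CPM. The libraries are called sorted retinal cells here. In such bulk RNA, fewer cells of a type and less RNA per cell cannot be told apart.

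*Igf1* was the trophic factor with a called change. With an adjusted p below 0.05 and more than 1.5-fold required, it was the 1 call among the 6 factors that passed the filter on low counts, where 3.80% of all 20241 tested genes were called and 2.52% were called higher in the Ezh2 libraries. *Lif* passed the adjusted p but not the fold change, and 17.8% of all tested genes passed the adjusted p alone. *Bdnf*, *Ntf3*, *Osm* and *Fgf2* did not pass. *Gdnf* and *Cntf* were below the filter, and *Ocm* had no count in any library. With all 6 libraries, *Igf1* was again the 1 call, where 2.52% of 19732 tested genes were called.

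*Igf1* (ENSMUSG00000020053, chr10:87858265-87937042, plus strand, GRCm38) encodes insulin-like growth factor 1. The GFP libraries held 5.89, 7.24 and 6.80 CPM of it, compared to 11.1, 11.8 and 8.48 CPM for Ezh2 replicates 1, 2 and 3. Each Ezh2 library lay above each GFP library, with replicate 3 the lowest of its group. The GFP mean was 6.64 ± 0.687 CPM (SD, n = 3), and that of Ezh2 replicates 1 and 2 was 11.5 ± 0.475 CPM (SD, n = 2), which is 1.72 times as high. The log2 fold change was 0.80 ± 0.14 (SE, adjusted p = 0.00013 by the quasi-likelihood test of edgeR). With all 6 libraries it was 0.69 ± 0.16 (SE, adjusted p = 0.042). The call on 6 libraries was lost when any 1 of GFP replicates 1 to 3 or Ezh2 replicates 1 and 2 was left out (adjusted p between 0.0973 and 0.183), whereas the call on 5 libraries was kept without any 1 of them (adjusted p between 0.00026 and 0.0048). *Igf1* is among the positive regulators of axon regeneration that the study listed from these same libraries, so its rise is not independent evidence for that list.

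The neurotrophins did not pass the test. *Bdnf* (ENSMUSG00000048482, chr2:109674700-109727007, plus strand) encodes the ligand of TrkB. It reached 5.56, 5.47 and 4.91 CPM in the GFP libraries, 5.78 and 7.42 CPM in Ezh2 replicates 1 and 2, and 5.004 CPM in replicate 3. Replicates 1 and 2 lay above the GFP libraries and replicate 3 lay among them. The log2 fold change of 0.33 ± 0.18 (SE) did not pass (adjusted p = 0.228, or 0.466 with all 6 libraries). *Ntf3* (ENSMUSG00000049107, chr6:126101412-126166910, minus strand) encodes NT-3, the ligand of TrkC. It held 15, 20 and 16 counts in the GFP libraries (0.491, 0.632 and 0.521 CPM), and 28, 41 and 25 counts in Ezh2 replicates 1 to 3 (0.870, 1.17 and 0.695 CPM). The groups did not overlap, but at this depth the log2 fold change of 0.91 ± 0.45 (SE) did not pass (adjusted p = 0.183, or 0.228 with all 6 libraries).

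*Lif* and *Osm*, of the interleukin-6 family, were highest in Ezh2 replicate 3. *Lif* (ENSMUSG00000034394, chr11:4257557-4272514, plus strand) encodes leukemia inhibitory factor. It reached 26.1, 24.8 and 26.3 CPM in the GFP libraries, 30.2 and 30.5 CPM in Ezh2 replicates 1 and 2, and 55.2 CPM in replicate 3. The Ezh2 libraries all lay above the GFP libraries, and replicate 3 was 1.82 times the mean of its 2 companions. The log2 fold change on 5 libraries was 0.25 ± 0.08 (SE, adjusted p = 0.0338), and leaving out any 1 of the 5 raised the adjusted p to between 0.0533 and 0.178. With all 6 libraries it was 0.64 ± 0.27 (SE, adjusted p = 0.211).

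*Osm* (ENSMUSG00000058755, chr11:4236420-4241026, plus strand) encodes oncostatin M, and ends 16531 bases before *Lif* starts. It reached 6.67, 6.22 and 6.25 CPM in the GFP libraries, 8.07 and 7.31 CPM in Ezh2 replicates 1 and 2, and 17.3 CPM in replicate 3. Its groups did not overlap either, and replicate 3 was 2.24 times the mean of the other Ezh2 libraries. The log2 fold change was 0.28 ± 0.16 (SE, adjusted p = 0.245) on 5 libraries and 0.82 ± 0.35 (SE, adjusted p = 0.204) on 6. *Cntf* (ENSMUSG00000079415, chr19:12763660-12765632, minus strand), which encodes ciliary neurotrophic factor, had 3, 9 and 7 counts in the GFP libraries and 0, 7 and 3 counts in Ezh2 replicates 1 to 3. The groups overlapped, and its 0 in Ezh2 replicate 1 leaves room for 0.0932 CPM. Of its exon bases, 78.9% are shared with *Zfp91* on the same strand, so its counts are uncertain.

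**Figure D1:**
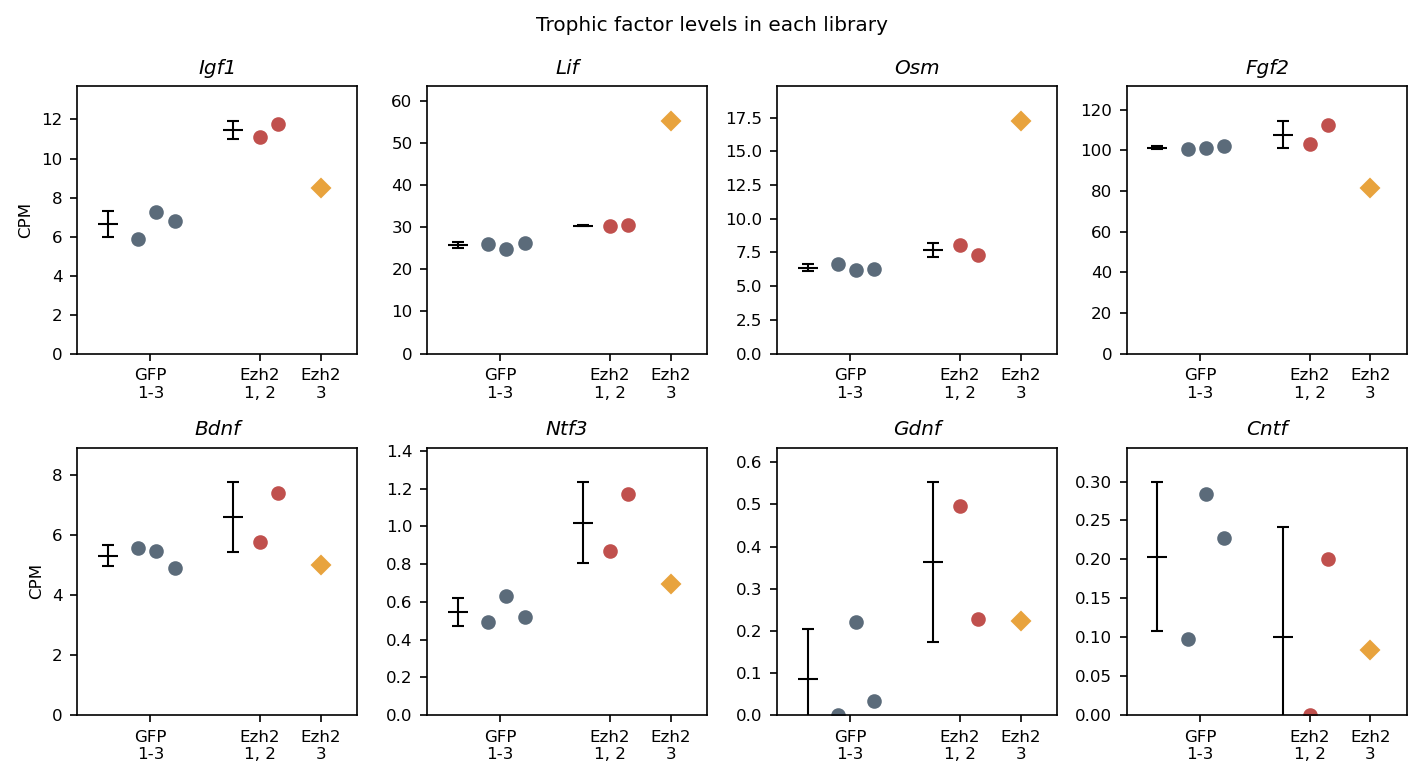
Level of 8 trophic factors in each library, in CPM on axes that start at 0 and differ between panels. Grey circles are GFP replicates 1 to 3, red circles are Ezh2 replicates 1 and 2, the orange diamond is Ezh2 replicate 3, and black marks give the mean ± SD of the circles beside them (error bars are cut at 0). *Igf1* is higher in Ezh2 replicates 1 and 2 (11.1 and 11.8 CPM) than in replicate 3 (8.48 CPM), whereas *Lif* and *Osm* are highest in replicate 3 (55.2 and 17.3 CPM).

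*Fgf2* (ENSMUSG00000037225, chr3:37348346-37410108, plus strand) encodes basic fibroblast growth factor. It reached 101, 101 and 102 CPM in the GFP libraries, 103 and 112 CPM in Ezh2 replicates 1 and 2, and 81.6 CPM in replicate 3. Replicate 3 lay below and the other Ezh2 libraries above the GFP libraries. The log2 fold change was 0.10 ± 0.06 (SE, adjusted p = 0.251) on 5 libraries and 0.00 ± 0.10 (SE, adjusted p = 0.991) on 6. Its exons share 9.44% of their bases with *Nudt6* on the other strand, and those of *Bdnf* share 14.4% with the antisense gene *Gm45346*, which matters only if strand was not used in counting.

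*Gdnf* (ENSMUSG00000022144, chr15:7810846-7837575, plus strand) encodes the glial cell line-derived neurotrophic factor. It held 0, 7 and 1 counts in the GFP libraries and 16, 8 and 8 counts in Ezh2 replicates 1 to 3. All 3 Ezh2 libraries lay above the GFP libraries in CPM, by a margin of 0.222 against 0.221 CPM at the nearest pair. Of the tested genes, to which *Gdnf* does not belong, 14.9% showed this order. An exact two-sided permutation test of the 3 libraries against 3 gave p = 0.1, the smallest value this design allows, and the same test gave p = 0.2 for *Cntf*. Fitted without a filter, the log2 fold change of *Gdnf* was 2.04 ± 1.00 (SE, adjusted p = 0.219), so a difference was not detectable at this depth. *Ocm* (ENSMUSG00000029618, chr5:144019804-144026670, minus strand), which encodes oncomodulin, had 0 counts in all 6 libraries, which allows up to 0.0834 to 0.0981 CPM.

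All 6 tested factors had higher CPM in Ezh2 replicates 1 and 2 than in every GFP library, an order that 21.5% of all tested genes showed. With replicate 3 included, *Igf1*, *Ntf3*, *Lif* and *Osm* kept it, an order that 14.9% of tested genes showed. The factors are not independent of each other, since all were read in the same libraries.

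**Figure D2:**
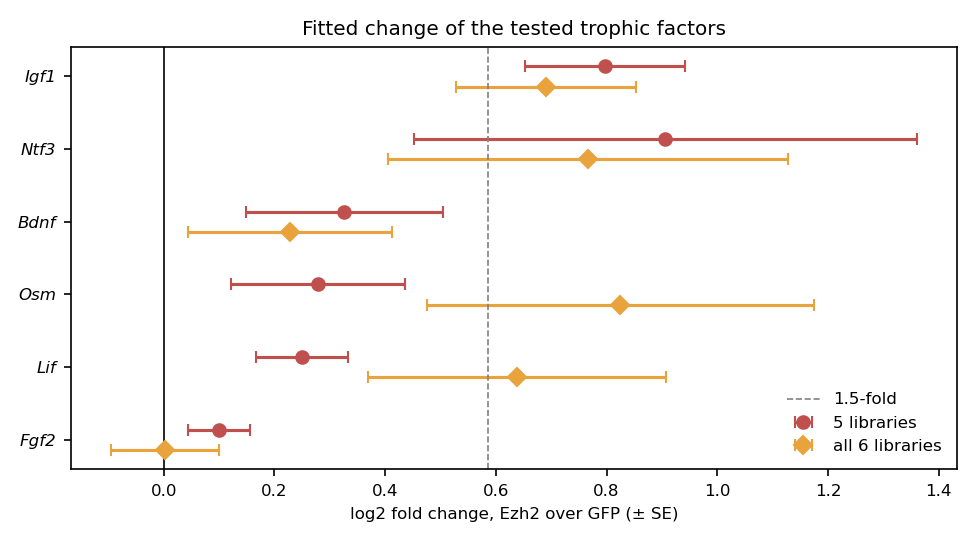
Fitted log2 fold change of the 6 tested trophic factors, Ezh2 over GFP, with bars of ± 1 SE. Red circles are the 5-library fit, orange diamonds the 6-library fit, and the dashed line marks a fold change of 1.5. *Igf1* lies past the dashed line in both fits (0.80 and 0.69), and the points of *Lif* and *Osm* move from 0.25 and 0.28 to 0.64 and 0.82 when replicate 3 enters.

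Between genes, levels were compared as CPM per kilobase of merged exon length. In the GFP libraries the order was *Fgf2* at 14.9 ± 0.114, *Lif* at 5.92 ± 0.183, *Osm* at 2.81 ± 0.111, *Bdnf* at 0.855 ± 0.0563, *Igf1* at 0.671 ± 0.0694, *Ntf3* at 0.320 ± 0.0434, *Cntf* at 0.190 ± 0.0890 and *Gdnf* at 0.0230 ± 0.0325 (SD, n = 3), and the ranges of no neighbouring pair overlapped. In Ezh2 replicates 1 and 2, *Igf1* at 1.16 ± 0.0480 stood before *Bdnf* at 1.06 ± 0.187 CPM per kilobase (SD, n = 2), a pair whose ranges overlapped. *Fgf2*, *Lif* and *Osm* stayed the first 3 in that group, at 15.9, 6.98 and 3.39 CPM per kilobase.

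Promoters were read for the 8 factors that the RefSeq table of GRCm38.p6 holds, in the 250 bases before each annotated start. A *Lif* and a *Bdnf* window are shown as 1 example each of the matches found, cut to the bases outside annotated exons. TGANTCA was found in 6.75% of the 32841 promoters of the table. It is a looser form of the AP-1 letters TGA(C/G)TCA bound by FOS and JUN proteins, with any base in the middle. TTCNNNGAA, the letters bound by STAT proteins, was found in 7.02% (both strands searched, matches in capitals).
*Lif*, chr11:4257318-4257556, plus strand, AP-1 letters starting 228 bases before the RefSeq start: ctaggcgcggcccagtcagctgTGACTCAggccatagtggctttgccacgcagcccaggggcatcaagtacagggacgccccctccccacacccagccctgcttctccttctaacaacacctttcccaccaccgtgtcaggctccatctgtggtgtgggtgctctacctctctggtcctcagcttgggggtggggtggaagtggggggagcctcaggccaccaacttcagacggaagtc
*Bdnf*, first of 7 starts, chr2:109674450-109674699, plus strand, STAT letters starting 122 bases before the start: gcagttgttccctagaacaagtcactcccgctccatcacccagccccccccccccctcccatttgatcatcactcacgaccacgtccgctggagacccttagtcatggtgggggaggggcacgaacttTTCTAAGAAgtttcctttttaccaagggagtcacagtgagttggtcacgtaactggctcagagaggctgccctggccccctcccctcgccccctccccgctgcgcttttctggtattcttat
A match describes the letters only, and no binding was measured. TGANTCA was also found 37 bases before the *Igf1* start, 245 bases before the *Cntf* start and, as TGAATCA, 152 bases before the second *Bdnf* start. The *Igf1* and *Fgf2* windows lay wholly within annotated exons, downstream of the gene starts given above. The *Ocm* window, chr5:144050610-144050859, lay apart from the gene span given above. The *Gdnf* window at its first start held TATAAA 31 bases before it, letters found in 12.4% of promoters, and the CRE letters TGACGTCA, found in 1.55%, were in none of the windows read.

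Genes around the factors, namely receptors, IGF carriers, signal mediators, other secreted factors and activity-induced genes, were followed in 5 lists of 94 genes. Of these, 91 were tested and 13 were called on 5 libraries. Across all tested genes 3.80% were called, against which the count of each list is to be read, and the median log2 fold change was -0.01. Of 16 receptors and coreceptors, 1 was called higher and 2 lower, with a median log2 fold change of -0.19. *Gfra1*, the GDNF coreceptor, fell from 13.8 ± 1.05 CPM (SD, n = 3) to 7.14 and 8.82 CPM in Ezh2 replicates 1 and 2, with 4.59 CPM in replicate 3 (log2 fold change -0.77 ± 0.13, adjusted p = 7.7e-05). *Ntrk3*, which encodes TrkC, fell from 6.93 ± 0.0868 CPM (SD, n = 3) to 3.70 and 3.28 CPM (log2 fold change -0.98 ± 0.18, adjusted p = 0.00022). In replicate 3 it lay at 13.3 CPM, above all other libraries, and the call was lost with all 6 (0.03, adjusted p = 0.981). *Fgfr4*, an FGF receptor, lay at 0.0327, 0.0948 and 0.293 CPM in the GFP libraries and rose to 0.885 to 1.21 CPM in the 3 Ezh2 libraries (adjusted p = 0.0014, or 0.0262 with all 6). In GFP replicates 1 and 2 it was at or below 3 counts. *Fgfr4* passed the filter on low counts only through the Ezh2 libraries, so no support is drawn from its call. *Igf1r*, the receptor of IGF1 and named here after its values were seen, went from 505 ± 18.9 to 424 ± 21.3 CPM, a log2 fold change of -0.24 ± 0.05 that passed the adjusted p (0.00073) but not the fold change, and that passed neither with all 6 libraries (adjusted p = 0.056). With all 6 libraries, 1 receptor was called higher and 1 lower, and with any 1 of GFP replicates 1 to 3 or Ezh2 replicates 1 and 2 left out of the 6, 0 or 1 receptor was called.

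The genes of 2 IGF-binding proteins were called higher. Of 12 genes for IGF carriers and other IGF ligands, 11 were tested, 2 were called higher and none lower, with a median log2 fold change of 0.21, or -0.02 with all 6 libraries. *Igfbp2*, an IGF-binding protein, rose from 21.1 ± 0.727 CPM (SD, n = 3) to 27.3, 37.5 and 31.5 CPM in Ezh2 replicates 1 to 3 (log2 fold change 0.63 ± 0.11, adjusted p = 0.00028). *Igfbp3*, the main carrier of IGF1 in serum, rose from 2.46 ± 0.479 CPM (SD, n = 3) to 5.22, 5.11 and 5.31 CPM (1.08 ± 0.22, adjusted p = 0.00069). In both genes every Ezh2 library lay above every GFP library, an order that 14.9% of tested genes showed, and both calls held with all 6 libraries. The count of 2 fell to 1 on the 5 libraries without Ezh2 replicate 2, to 1 on the 6 without that replicate, and to 0 on the 6 without any 1 of the GFP replicates. Other binding proteins passed the adjusted p but not the fold change, and were named after their values were seen. *Igfbp4* fell from 67.8 to 48.5 CPM on average (-0.47 ± 0.07, adjusted p = 3.0e-06). *Igfbp5* rose from 123 to 163 CPM (0.42 ± 0.06, adjusted p = 1.8e-05).

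Of 24 signal mediators downstream of the factors, 1 was called higher and none lower (median 0.10). That gene was *Socs3*, a STAT3 target that feeds back on gp130 signalling. It lay at 96.5 to 107 CPM in the GFP libraries and rose to 182, 183 and 192 CPM in Ezh2 replicates 1 to 3 (log2 fold change 0.83 ± 0.05, adjusted p = 1.3e-12). *Dusp6*, an ERK phosphatase induced by FGF signalling, had the next smallest p in that list, with 171 ± 5.43 CPM against 226 ± 8.87 CPM (0.41 ± 0.05, adjusted p = 4.4e-07), and did not pass the fold change.

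Of 7 activity-induced genes, 4 were called higher and none lower (median 0.88). *Fos* went from 287 ± 17.1 to 568 ± 31.6 CPM, *Junb* from 155 ± 6.49 to 283 ± 12.2 CPM, *Egr1* from 90.7 ± 3.38 to 175 ± 18.1 CPM and *Fosb* from 30.3 ± 4.03 to 70.0 ± 10.8 CPM (SD, n = 3 and 2), with log2 fold changes of 0.99, 0.88, 0.95 and 1.22. All 4 calls held with all 6 libraries.

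Among 35 other secreted trophic factors, 33 were tested, 1 was called higher and 2 lower, with a median log2 fold change of 0.02. *Fgf1*, which encodes acidic FGF, fell from 13.5 ± 1.67 CPM (SD, n = 3) to 6.49, 6.22 and 3.98 CPM in Ezh2 replicates 1 to 3 (log2 fold change -1.08 ± 0.14, adjusted p = 1.1e-06). *Nrg1*, which encodes the ErbB ligand neuregulin 1, fell from 19.3 ± 1.36 to 11.9 ± 1.97 CPM (-0.69 ± 0.11, adjusted p = 3.8e-05). *Gdf15*, a stress-induced TGF-beta family ligand, rose from 0.247 ± 0.0777 to 0.989 ± 0.257 CPM (2.00 ± 0.55, adjusted p = 0.009). It passed the filter on low counts only through the Ezh2 libraries, so no support is drawn from that call. The 3 calls held with all 6 libraries, where 1 more gene was called higher, and without GFP replicate 1, 2 or 3 the 6-library count was 0, 1 or 0.

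**Figure D3:**
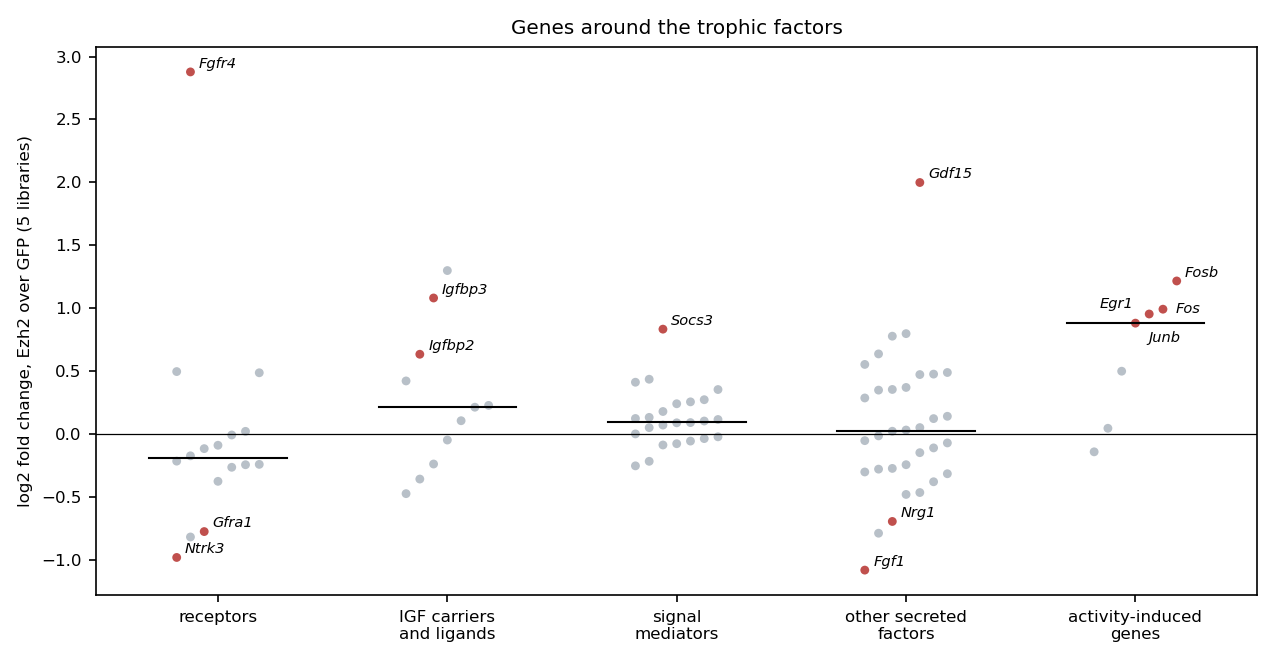
Log2 fold change, Ezh2 over GFP on 5 libraries, of the tested genes in 5 lists around the trophic factors. Each point is a gene, red and named where called and grey otherwise, and black lines are list medians. The 7 activity-induced genes have the highest median (0.88) and the 16 receptors the lowest (-0.19).

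To set the factors beside glial and myeloid sources, the summed CPM of marker lists was taken in each library. Müller glia are the radial glia that span the retina, and their 10 markers summed to 22756 to 23577 CPM in the GFP libraries, 17738 and 18134 CPM in Ezh2 replicates 1 and 2, and 14195 CPM in replicate 3. None of the 10 was called and 1 had a positive fold change. *Glul* lay at 9757 CPM on average in the GFP group and 6918 CPM in Ezh2 replicates 1 and 2 (log2 fold change -0.49 ± 0.05), and *Dkk3* at 4047 and 3401 CPM (-0.24 ± 0.05). The 6 astrocyte markers summed to 672 to 708 CPM against 1005 and 1190 CPM, and 939 CPM in replicate 3. That sum rested on *Gfap*, an intermediate filament that Müller glia also make after injury, which rose from 418 to 832 CPM (1.01 ± 0.08, adjusted p = 1.4e-05). *Aldh1l1*, with 195 and 191 CPM, did not pass. The 10 RGC markers summed to 127 to 132 CPM in the GFP libraries, 161 and 149 CPM in Ezh2 replicates 1 and 2, and 166 CPM in replicate 3, with 1 of 8 tested called higher. The 5 rod markers summed to 360 to 428 CPM against 651 and 692 CPM, and 385 CPM in replicate 3, with 1 of 5 called higher. The 5 cone markers summed to 11.9 to 15.3 CPM against 38.9 and 27.1 CPM, and 15.8 CPM in replicate 3, with 5 of 5 called higher (median log2 fold change 1.18) and 3 of 5 without Ezh2 replicate 1. With all 6 libraries, 0 rod and 0 cone markers were called.

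Myeloid markers rose in part. The 12 macrophage and monocyte markers summed to 287 to 318 CPM in the GFP libraries, 575 and 628 CPM in Ezh2 replicates 1 and 2, and 477 CPM in replicate 3. Of 11 tested, 6 were called higher and none lower. *Stab1*, a scavenger receptor, rose from 60.7 to 230 CPM (1.94 ± 0.06), and *Adgre1*, which encodes F4/80, lay at 95.9 and 142 CPM (0.57 ± 0.06), below the fold change. The 12 microglia markers summed to 1811 to 1998 CPM against 2254 and 2397 CPM, and 1636 CPM in replicate 3, with 2 called higher and 1 lower. *Fcrls* (log2 fold change 1.70) and *Trem2* (0.91) were the higher and *Sall1* (-0.63) the lower, and *Trem2* was not called with all 6 libraries. Of the 12, 9 had a positive fold change on 5 libraries, with a median of 0.20, and 7 on 6. *Csf1r* at 516 and 614 CPM and *C1qa* at 478 and 581 CPM did not pass the fold change. Of 9 neutrophil markers, *Retnlg* and *Ngp* were at 0 and *Ly6g* and *Camp* at or below 3 counts in all libraries. *Mmp8*, a collagenase, lay at 0 to 0.0976 CPM in the GFP libraries and 1.06 to 1.97 CPM in the Ezh2 libraries, and *Csf3r*, a receptor that other myeloid cells share, at 58.0 and 77.0 CPM on average (0.42 ± 0.06), below the fold change.

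*Igf1* was then divided by the sums of 5 marker lists, those of Müller glia, astrocytes, microglia, macrophages and monocytes, and T cells. Per 100 CPM of macrophage and monocyte markers it gave 2.02 to 2.37 CPM in the GFP libraries, 1.93 and 1.88 CPM in Ezh2 replicates 1 and 2, and 1.78 CPM in replicate 3, so by this ratio every Ezh2 library was lower than every GFP library. The rise of that sum rested in large part on *Stab1*. From the GFP mean to that of Ezh2 replicates 1 and 2, the sum rose from 299 to 601 CPM and *Stab1* from 60.7 to 230 CPM. The direction of this ratio depended on that 1 gene. With *Stab1* taken out of the sum, the order turned, and every Ezh2 library was above every GFP library, narrowly at the nearest pair. Per 100 CPM of microglia markers *Igf1* gave 0.300 to 0.376 CPM against 0.493, 0.492 and 0.518 CPM, and per 100 CPM of Müller glia markers 0.0250 to 0.0318 CPM against 0.0627, 0.0650 and 0.0597 CPM, higher in every Ezh2 library. Per 100 CPM of astrocyte markers, 0.858 to 1.08 CPM stood against 1.11, 0.990 and 0.903 CPM and the groups overlapped. Per 100 CPM of T cell markers, 1.38 to 1.71 CPM stood against 2.06, 2.29 and 0.999 CPM, with replicate 3 below and the other Ezh2 libraries above the GFP libraries. The part of the makeup of the libraries in its rise was not tested.

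*Lif* and *Osm* were set beside T cell markers as well. The 8 T cell markers summed to 402 to 428 CPM in the GFP libraries, 539 and 515 CPM in Ezh2 replicates 1 and 2, and 849 CPM in replicate 3. On 5 libraries 1 of them was called higher, *Cd8a* (log2 fold change 1.38 ± 0.08, adjusted p = 2.8e-13), and the call held with all 6. The rest lay between 0.13 (*Cd4*) and 0.39 (*Cd3d*), so the sum joins genes of unlike change. T cells of the mouse carry Thy1, on which the cells were sorted. Per 100 CPM of these markers, *Lif* gave 5.88 to 6.55 CPM in the GFP libraries and 5.61, 5.92 and 6.51 CPM in Ezh2 replicates 1 to 3, ranges that overlapped. *Osm* gave 1.47 to 1.56 CPM against 1.497, 1.42 and 2.03 CPM, so replicate 3 stayed the highest. Per 100 CPM of macrophage and monocyte markers, *Lif* gave 7.82 to 9.17 CPM against 5.26, 4.86 and 11.6 CPM, and *Osm* 1.96 to 2.29 CPM against 1.40, 1.16 and 3.62 CPM, lower in replicates 1 and 2 and higher in replicate 3. Per 100 CPM of Müller glia markers, *Lif* gave 0.109 to 0.112 CPM against 0.171, 0.168 and 0.389 CPM. *Osm* gave 0.0265 to 0.0284 CPM against 0.0455, 0.0403 and 0.122 CPM by that ratio. Per 100 CPM of microglia markers, *Lif* gave 1.24 to 1.45 CPM against 1.34, 1.27 and 3.38 CPM. *Osm* gave 0.312 to 0.345 CPM against 0.358, 0.305 and 1.06 CPM. Per astrocyte marker both were lower in replicates 1 and 2 and higher in replicate 3. The part of T cells, glia or myeloid cells in these values was not tested.

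*Fgf2* per 100 CPM of Müller glia markers gave 0.429 to 0.444 CPM in the GFP libraries and 0.581, 0.620 and 0.575 CPM in the Ezh2 libraries. *Bdnf* gave 0.0208 to 0.0240 CPM against 0.0326, 0.0409 and 0.0353 CPM by the same ratio. For both factors the ratio was higher in every Ezh2 library, whereas per macrophage and monocyte marker it was lower in every Ezh2 library, at 17.1 to 17.9 CPM against 31.8 to 35.6 CPM for *Fgf2*. These ratios follow the sums below them. Relative to the GFP mean, the Müller glia sum was 0.770 in Ezh2 replicates 1 and 2 and 0.610 in replicate 3. The macrophage and monocyte sum was 2.01 and 1.60. A gene of unchanged CPM would separate the same way. Per Müller glia marker *Igf1*, *Lif*, *Osm* and *Ntf3* were also higher in every Ezh2 library. The CPM of *Fgf2* and of *Bdnf* had not passed the test.

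**Figure D4:**
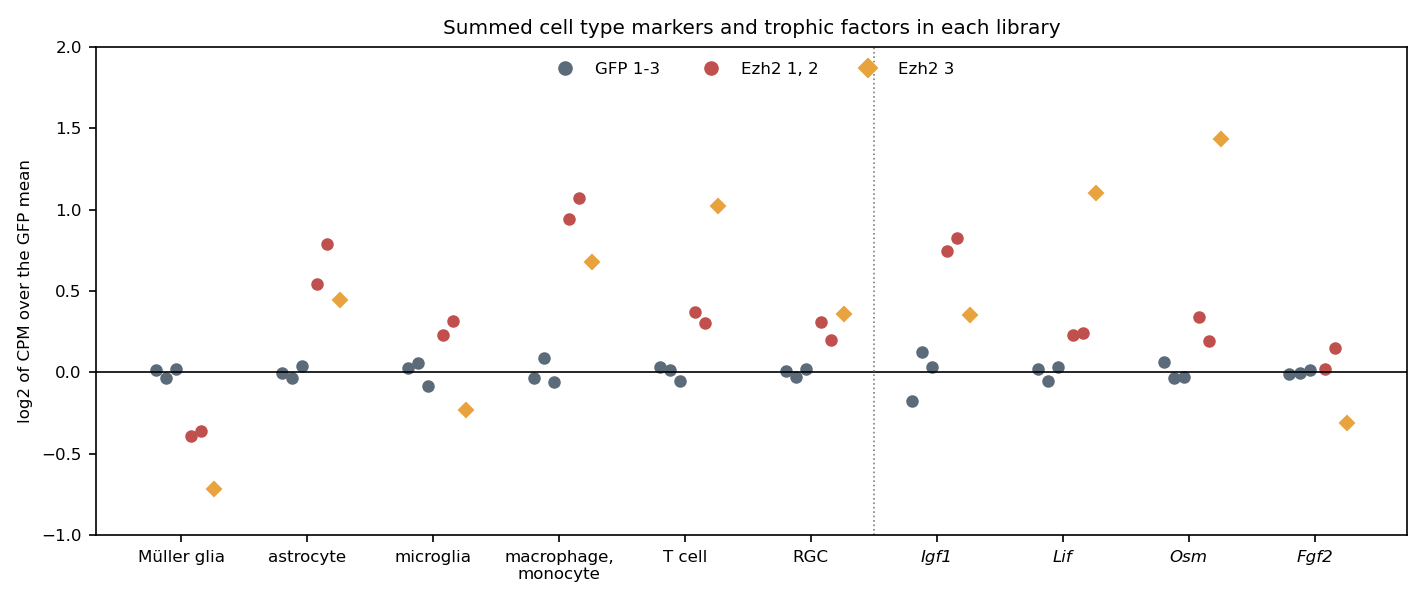
Summed CPM of 6 marker lists and the CPM of 4 trophic factors in each library, as log2 of the value over the mean of the GFP libraries. Grey circles are GFP replicates 1 to 3, red circles Ezh2 replicates 1 and 2, and orange diamonds Ezh2 replicate 3. *Igf1* and the astrocyte, microglia, and macrophage and monocyte sums are highest in Ezh2 replicates 1 and 2, whereas the T cell sum (849 CPM), the RGC sum (166 CPM), *Lif* and *Osm* are highest in replicate 3.

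Lastly, the genes with the most similar pattern were taken for each of the 5 factors with at least 100 counts on average, by Pearson's r of log2 CPM over the 6 libraries among 12689 genes. They were *Paox* (r = 0.996), *Tnfaip2* (0.993) and *Cyp4f18* (0.991) for *Igf1*, and *Cd63* (0.987), *Cd302* (0.985) and *Cox14* (0.983) for *Bdnf*. For *Lif* they were *Actl6a* (0.999), *Itpa* (0.999) and *Rapgef4* (0.998), for *Osm* *Cd6* (1.000), *Nfkb1* (0.999) and *Gimap3* (0.998), and for *Fgf2* *Mrpl23* (0.999), *Lgi4* (0.995) and *Desi2* (0.994). *Cd6*, which encodes a receptor of T cells, went from 60.7 to 65.1 CPM in the GFP libraries to 78.5, 71.5 and 158 CPM in Ezh2 replicates 1 to 3. These values share 6 libraries of which 1 stood apart, and for each of the 5 factors none of the 3 genes was among the first 3 on the 5 libraries without it.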

How the data were processed

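Total RNA of sorted retinal cells from 6 libraries had been made into stranded libraries. The authors deposited raw read counts per Ensembl gene. Per the submitters' processing notes, STAR 2.7.0d and GRCm38 were used. The counting program, annotation release and strand setting were not given in the sources used here. Of 55573 identifiers, 55480 had a model in GENCODE M21 (GRCm38), which gave coordinates and exon lengths, and 55394 had a symbol. All 6 count columns were matched to a sample by name.

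Counts were filtered with filterByExpr, scaled by TMM and fitted in edgeR 4.0.16 (R 4.3.3) with robust quasi-likelihood F tests, on GFP replicates 1 to 3 and Ezh2 replicates 1 and 2, without covariates. Two-sided p values were adjusted by the Benjamini-Hochberg method over all tested genes. A call needed an adjusted p below 0.05 and more than 1.5-fold. SEs were taken from the F statistic. CPM was computed on library totals and is given as mean ± SD. A count of 0 allows up to 3 counts, and such limits cover counting error only. The script was tested on simulated counts.

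The members and lists were chosen with earlier results of these data known. Named were all 9 factors, in each pathway list the called genes or, with fewer than 2, the 2 with the smallest p, in marker lists the most abundant genes, and the 3 genes with the most similar pattern. As alternatives the fit was repeated on all 6 libraries, with single libraries left out, with a replicate block, with DESeq2 1.42.0, RLE factors, library totals, other filters and the adjusted p alone. A fit without robust estimation was chosen after seeing the data. Figures were drawn with matplotlib 3.10.9.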

Additional observations from a re-analysis of the deposited data

Results flagged for a closer look

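*Lif* at 55.2 CPM and *Osm* at 17.3 CPM stood out in Ezh2 replicate 3, the library outside the 5-library comparison. Both values lay above every GFP library and over 1.5 times above every other library. No other trophic factor did so with at least 20 counts.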

How the results depend on the processing

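With all 6 libraries, 498 in place of 770 genes were called, and the log2 ratio of summed CPM moved from -0.38 to -0.49 for Müller glia markers and from 0.27 to 0.11 for microglia markers. On 6 libraries, leaving out GFP replicate 1, 2 or 3 gave 110, 187 or 126 called genes, and leaving out Ezh2 replicate 1 or 2 gave 416 or 423. In these 5 fits 0 factors and 4 to 10 pathway genes were called. Leaving 1 library out of the 5 gave 624 to 794 called genes and 1 factor, *Igf1*. By the adjusted p alone, 2 factors, 3605 genes and 38 pathway genes passed. Same-numbered libraries did not deviate together (correlations -0.0045, -0.0199 and -0.0099), so the numbers were not taken as pairs. With the replicate block, 0 factors and 396 genes were called on 6 libraries (*Igf1* adjusted p = 0.0731), and *Igf1* was still called on 5 (0.82, adjusted p = 0.00047). *Fgf2* turned in sign on 6 libraries without GFP replicate 1 (-0.00060), Ezh2 replicate 1 (-0.0093) or Ezh2 replicate 2 (-0.093), and with the replicate block (-0.0066), none past the threshold. *Fgf2* in the GFP group was 99.997 CPM on TMM-scaled sizes. The cause was not tested. Of the 3 most similar genes, 0 stayed for *Igf1*, *Bdnf*, *Lif*, *Fgf2* and *Osm* without Ezh2 replicate 3. *Igf1* kept its direction in 20 of 20 alternatives and its call in 14 (log2 fold change 0.60 to 0.86). With 2 or 3 libraries a group and few counts, changes of *Ntf3*, *Gdnf* and *Cntf* were not resolved.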

Other observations

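Some genes of the lists were also highest in Ezh2 replicate 3, and were chosen for mention after their values were seen. *Cish*, a STAT5 target that restrains cytokine signalling, lay at 32.8 to 38.3 CPM in the GFP libraries, 53.7 and 39.8 CPM in Ezh2 replicates 1 and 2, and 159 CPM in replicate 3. *Socs1*, a feedback inhibitor of JAK kinases, lay at 13.3 to 14.8, 18.04 and 16.2, and 32.3 CPM in the same order. *Nr4a1*, an immediate early gene also induced in activated lymphocytes, lay at 16.01 to 19.5, 20.4 and 15.4, and 70.3 CPM. None of the 3 was called on 5 or on 6 libraries, where 1 library of 3 carried the difference.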
